A study of Mus musculus with 229 samples.

Results

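The Hes and Hey genes encode basic helix-loop-helix repressors, and 6 of them were followed here through every expression table of the study: Hes1, Hes5, Hes6, Hey1, Hey2 and Heyl. They were chosen by name, as 6 of the 49268 gene names in the tables, and all 6 were present in each table. The study profiled mouse tumours labelled GBM, which is glioblastoma, and sorted cells of the cerebral cortex, in 229 samples of 10 groups. There was 1 Drop-seq library of tumour at dpi 25, and 1 10x library at dpi 35. Both methods capture cells in droplets and count unique molecular identifiers (UMIs), each marking 1 captured RNA molecule. The labels do not expand dpi, give neither genotype nor model for the tumours, and describe digestion and lysis of red blood cells without a sort. The cortex gave 1 Drop-seq library of PDGFRa-GFP cells from postnatal days 1 to 3 and 1 of hGFAP-GFP cells from days 5 to 6. GFP follows the Pdgfra promoter, active in oligodendrocyte precursor cells (OPCs), in the first strain, and a human GFAP promoter, active in astrocytes and neural progenitors, in the second. Both were sorted for GFP and against the dead-cell dye 7-AAD. Single cells were also captured on the C1 chip and given as TPM, transcript levels scaled to a fixed total per cell. The PDGFRa-GFP sets hold 53 P6 and 60 P3 cells, and the hGFAP-GFP sets 61 P4 to P6 and 49 P3 cells. Open chromatin was given as 1 pooled list of ATAC-seq intervals from PDGFRa-GFP cells of E14.5 and P5 titles. Mice are not named in any group, so each droplet library and each C1 set is 1 sample, and no comparison has a replicate or a test.

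Notch receptors, once bound by Delta or Jagged ligands on a neighbouring cell, release an intracellular part that joins the DNA-binding protein RBPJ and switches on Hes and Hey genes. Hes1 and Hes5 keep neural progenitors undifferentiated by repressing proneural genes, whose products in turn drive the Delta ligands. Hes6 lies apart from this scheme: it counters Hes1, is itself raised by proneural factors and promotes differentiation. Hey1, Hey2 and Heyl act mainly in blood vessels and the heart, and in glia of the developing brain.

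The dpi 25 library held 4955 cells with a median of 2063 UMIs, and the dpi 35 library 6054 cells with a median of 6582. The PDGFRa-GFP library held 3184 cells with a median of 2013.5 UMIs, and the hGFAP-GFP library 815 cells with a median of 4167. No cell barcode was shared between libraries. Levels below are CPM, the UMIs of a gene per 1000000 UMIs summed over cells, with an exact Poisson 95% interval. A share of cells with a UMI comes from a random draw of 1000 UMIs per cell, leaving out shallower cells, and has a Clopper-Pearson interval. Both intervals cover counting error only. Cells were clustered in each library without the 6 genes, and clusters are called "-like" after their markers. The dpi 25 library was 62.7% cycling-like and 25.8% unnamed cells, and the dpi 35 library 32.1% unnamed and 23.2% myeloid-like cells. The PDGFRa-GFP library was 31.1% neuronal-like, 28.5% cycling-like, 16.8% primitive OPC-like and 12.3% OPC-like cells. In bulk sums over a library, fewer cells of a type and less RNA per cell cannot be told apart.

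Hes1 was present in all 4 droplet libraries, Hes5 and Hes6 mainly in the cortex, and the Hey genes were sparse everywhere. Hes1 was at 106.4 CPM in dpi 25 tumour (interval 100.5 to 112.5), 38.3 CPM in dpi 35 tumour, 59.6 CPM in PDGFRa-GFP cortex and 76.5 CPM in hGFAP-GFP cortex. The dpi 25 tumour was the highest of the 4. Hes5 was at 2.43 CPM in dpi 25 tumour (28 UMIs), 5.14 CPM in dpi 35 tumour (263 UMIs), 326.2 CPM in PDGFRa-GFP cortex (2664 UMIs) and 110.6 CPM in hGFAP-GFP cortex (464 UMIs). Both tumour libraries lay far below both cortex libraries. Hes6 was at 24.4 CPM in dpi 25 tumour, 27.2 CPM in dpi 35 tumour, 126.1 CPM in PDGFRa-GFP cortex and 115.8 CPM in hGFAP-GFP cortex. The intervals of the cortex libraries, 118.5 to 134.1 and 105.8 to 126.6, overlapped.

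Shares of cells gave the same picture for Hes5 and Hes6. For Hes1 the dpi 25 tumour was again highest, but the dpi 35 and PDGFRa-GFP shares were alike where their CPM were not. At 1000 UMIs per cell a Hes5 UMI was found in 0.222% of cells at dpi 25, 0.578% at dpi 35, 14.1% in the PDGFRa-GFP library and 9.45% in the hGFAP-GFP library. With all UMIs of each cell, and the libraries at their own depths, the shares were 0.545%, 3.12%, 21.2% and 22.9% in the same order. Hes1 was found at 1000 UMIs in 9.65%, 3.82%, 3.76% and 6.13% of cells, and Hes6 in 2.56%, 2.36%, 10.9% and 9.08%. The draw left out 500 of 3184 PDGFRa-GFP cells and none of the other libraries. The order of the libraries for Hes5 thus depended on depth within the cortex, where the CPM and the share at 1000 UMIs put PDGFRa-GFP first, and not between cortex and tumour.

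Hey1 had 142 UMIs (12.3 CPM) at dpi 25, 482 UMIs (9.42 CPM) at dpi 35, 108 UMIs (13.2 CPM) in PDGFRa-GFP cells and 76 UMIs (18.1 CPM) in hGFAP-GFP cells. Hey2 reached at most 5.96 CPM, in hGFAP-GFP cells, and Heyl at most 1.29 CPM, at dpi 35. Hey1 spanned less than 2-fold over the 4 libraries, and its levels within cell classes, given below, differed far more.

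**Figure D1:**
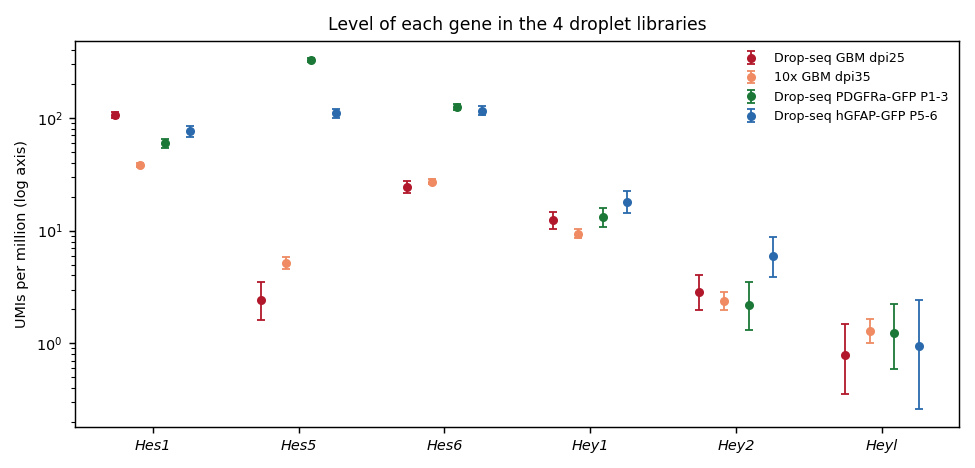
Level of each of the 6 genes, in CPM of summed UMIs on a log axis, in the 4 droplet libraries, each point with its exact Poisson 95% interval. Hes5 spans from 2.43 CPM in dpi 25 tumour to 326.2 CPM in PDGFRa-GFP cortex, while Hes1 stays between 38.3 and 106.4 CPM.

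The spread over single cells differed in the same way. In PDGFRa-GFP cortex 310 cells had 1 Hes5 UMI, 191 had 2 to 4 and 173 had 5 or more, with up to 32 in a cell. At dpi 25 there were 26 cells with 1 Hes5 UMI, 1 cell with 2 and none with more. At dpi 35, in deeper cells, 161 cells had 1 Hes5 UMI, 20 had 2 to 4 and 8 had 5 or more, with up to 11 in a cell. Single cells with many Hes5 molecules were thus found at dpi 35 and not at dpi 25. Hes6 at dpi 25 was seen as 1 UMI in 258 cells and as 2 in 12 cells.

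Chromatin at the 6 genes was read from the pooled PDGFRa-GFP list of 76321 intervals, whose heights and q values are the authors' own and whose ages cannot be told apart. Within 5 kb of the gene there were 9 intervals at Hes1 (chr16:30065357-30067796), 10 at Hes5 (chr4:154960626-154962372), 3 at Hes6 (chr1:91411483-91414038), 3 at Hey1 (chr3:8663359-8667038), 2 at Hey2 (chr10:30832359-30842783) and 2 at Heyl (chr4:123233556-123249870). The median over 21883 protein-coding genes was 2 intervals, and 73.5% of them had at least 1. Some intervals also lay over another gene: 3 of those at Hes1, 2 at Hes5 and 1 at Hey1. At Hes5 the interval with the highest −log10 q, 27.6, lay 383 bases beyond the gene at chr4:154962755-154965523 and over Pank4, a gene of the pantothenate kinase family. The interval over the Hes5 promoter, chr4:154960372-154961710, had a −log10 q of 10.6 and a fold over background of 8.09. Intervals over the gene itself reached 22 at Hes6 (chr1:91412508-91414340), 18 at Hey1 (chr3:8666586-8668269, which also lies over the annotated gene LOC115489673) and 23.4 at Hey2 (chr10:30842112-30843551). The highest value was 6.26 at Hes1 and 1.71 at Heyl, below the −log10 q of 10 that 35.5% of protein-coding genes reached within 5 kb. The pooled list therefore held an interval past 10 at Hes5, Hes6, Hey2 and, shared with the other gene, Hey1, and none at Hes1 or Heyl.

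Promoter windows from RefSeq (build GRCm38.p6) run from 250 bases before to 50 after an annotated start, which need not be the outer end of the gene. They were held for Hes5, Hes6 and Hey2 of the 6 genes, and an interval lay over each of them. The Hes5 window and the Hes6 window printed below lie wholly inside the gene positions given above. The windows are shown because they differ in the letters that RBPJ is known to bind. Capitals mark TGGGAA, or TTCCCA where the match is on the other strand, and no other motif is marked. The sequences run 5′ to 3′ on the strand of the gene.
Hes5, chr4:154960673-154960972, plus strand: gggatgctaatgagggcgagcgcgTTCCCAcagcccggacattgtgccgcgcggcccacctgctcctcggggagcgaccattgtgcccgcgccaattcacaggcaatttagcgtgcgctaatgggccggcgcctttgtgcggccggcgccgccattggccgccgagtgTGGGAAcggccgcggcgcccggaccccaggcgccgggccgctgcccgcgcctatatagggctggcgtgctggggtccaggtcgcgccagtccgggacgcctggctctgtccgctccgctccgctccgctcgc
Hey2, chr10:30842734-30843033, minus strand: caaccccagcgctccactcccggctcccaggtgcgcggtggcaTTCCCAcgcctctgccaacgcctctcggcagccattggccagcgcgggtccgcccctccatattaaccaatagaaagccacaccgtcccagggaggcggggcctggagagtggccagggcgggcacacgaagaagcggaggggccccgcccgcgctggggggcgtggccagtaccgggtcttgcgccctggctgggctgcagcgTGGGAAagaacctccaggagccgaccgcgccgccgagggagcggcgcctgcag
Hes6, chr1:91413173-91413472, minus strand: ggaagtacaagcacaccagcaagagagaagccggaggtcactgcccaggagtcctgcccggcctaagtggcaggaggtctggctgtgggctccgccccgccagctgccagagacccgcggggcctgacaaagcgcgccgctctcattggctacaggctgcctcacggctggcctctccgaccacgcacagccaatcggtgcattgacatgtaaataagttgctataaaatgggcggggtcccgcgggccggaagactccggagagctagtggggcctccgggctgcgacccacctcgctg
With the first base of a window counted as -250, the matches began at -226 and -82 in Hes5 and at -207 and -3 in Hey2. Neither this Hes6 window nor a second one at chr1:91413989-91414288, which reaches past the outer end of the gene, held a match. At least 1 match was found in 25.6% of 32851 promoter windows, and 2 or more in 3.79%. The longer form GTGGGAA, searched on both strands and overlapping the shorter one, was present at both places in Hes5 and in Hey2. It was found 2 or more times in 84 windows, which is 0.256% of them. A match is a run of letters in a window and not a measured binding site.

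Hes1 was highest in astrocyte-like and radial glia-like cells of the cortex and in vascular cells of the tumours. In PDGFRa-GFP cortex it was at 421.8 CPM in the 41 astrocyte-like cells (interval 313 to 556), 142 CPM in OPC-like, 63.7 CPM in primitive OPC-like and 52.1 CPM in cycling-like cells. Neuronal-like cells were at 9.89 CPM there, with 0.9% of them holding a UMI at 1000 UMIs per cell (median depth 1462), against 20% of astrocyte-like cells (median depth 1950). In hGFAP-GFP cortex Hes1 was at 307.7 CPM in the 45 radial glia-like cells, 196.4 CPM in the 116 astrocyte-like cells, 32.2 CPM in cycling-like cells and 0 in the 119 neuronal-like cells, which allows up to 10.5 CPM. In the dpi 25 tumour it was at 327.6 CPM in the 84 endothelial-like cells (interval 263 to 404), 139.5 CPM in the 44 mural or fibroblast-like cells, 107 CPM in the 3105 cycling-like cells and 17.3 CPM in the 347 myeloid-like cells. At dpi 35 it was at 160.7 CPM in mural or fibroblast-like cells (interval 129 to 197), 131.2 CPM in endothelial-like cells (120 to 143), 44 CPM in cycling-like cells and 16 CPM in myeloid-like cells. The vascular classes were again highest, and their intervals overlapped. OPC-like tumour cells, named at dpi 35 only, were at 74.5 CPM.

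Within the cycling-like and myeloid-like classes of the dpi 35 tumour, Hes1 varied between clusters. It was at 61.5 and 76.1 CPM in 2 cycling clusters and at 7.87 CPM in another, led by Reep4, Tk1 and Hist1h1b, which also holds 4 myeloid markers. Among myeloid-like clusters, the 117 cells led by Chil3, Plac8 and S100a4, genes of monocytes, were at 125.3 CPM, and the other 3 clusters were between 3.94 and 13.9 CPM.

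In PDGFRa-GFP cortex Hes5 was a gene of astrocyte-like, primitive OPC-like and cycling-like cells. It was at 725.6 CPM in the astrocyte-like cells (interval 580 to 896), 654 CPM in the 535 primitive OPC-like cells (609 to 702), 461.7 CPM in the 907 cycling-like cells (439 to 486) and 166.6 CPM in the 393 OPC-like cells (141 to 196). The first 2 intervals overlapped and the others did not. At 1000 UMIs per cell a Hes5 UMI was found in 40%, 28.1%, 19% and 13.3% of these classes in the same order. In choroid plexus-like cells the share was 1.92% (median depth 4703), and in neuronal-like cells 3.98% (median depth 1462). Cycling-like cells held 57.2% of all Hes5 UMIs of the library and 40.4% of the UMIs of all genes. Primitive OPC-like cells held 29.3% of Hes5 UMIs and 14.6% of all UMIs. Clusters differed within the cycling-like class: Hes5 was at 996.5 CPM in the 179 cells led by the replication genes Ung, Mcm4 and Mcm2, at 518.3 CPM in a histone cluster, and at 91.4 CPM in the 143 cells led by Ube2c, Spc25 and Fbxo5.

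In hGFAP-GFP cortex the order of the classes differed. Hes5 was at 354.9 CPM in astrocyte-like cells (interval 307 to 408), 265.4 CPM in radial glia-like cells (206 to 336), 104.9 CPM in primitive OPC-like cells and 71.5 CPM in cycling-like cells. The 119 neuronal-like cells had no Hes5 UMI. The radial glia-like and oligodendrocyte-like classes of this library had fewer than 30 cells, or none, at Leiden resolutions 0.5 and 2. Astrocyte-like cells held 42.5% of the Hes5 UMIs of this library and 13.2% of the UMIs of all genes.

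In the tumours Hes5 stayed low in every class of at least 30 cells. At dpi 25 it was at 3.25 CPM in cycling-like cells (24 UMIs, interval 2.08 to 4.84), and no UMI was found in endothelial-like, mural or fibroblast-like, myeloid-like or oligodendrocyte-like cells. For the myeloid-like cells, a class of another origin, the upper limit was 4.26 CPM, which reaches above the cycling-like level. At dpi 35 it was at 10.3 CPM in cycling-like cells (8.35 to 12.5), 8.92 CPM in OPC-like cells (6.64 to 11.7) and 0.761 CPM in myeloid-like cells (0.329 to 1.5). The cycling-like and OPC-like levels at dpi 35 were thus above the myeloid-like level. A cluster of 19 cells at dpi 35 with astrocyte markers, smaller than the classes above, was at 115.7 CPM (61.6 to 198).

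Hes6 was highest in primitive OPC-like and cycling-like cells of both cortex libraries. It was at 184.5 CPM (interval 161 to 211) and 157.5 CPM (144 to 172) in these classes of PDGFRa-GFP cells, and at 318.1 CPM (256 to 391) and 172.8 CPM (153 to 194) in those of hGFAP-GFP cells. Astrocyte-like cells, where Hes1 and Hes5 were high, had 50.6 CPM of Hes6 in the PDGFRa-GFP library and 23.4 CPM in the hGFAP-GFP library. In neuronal-like cells Hes6 was at 92.7 CPM in the PDGFRa-GFP library and 42.8 CPM in the hGFAP-GFP library, where Hes5 was at 49.5 CPM and 0 and Hes1 at 9.89 CPM and 0. In excitatory precursor-like cells it was at 113 CPM (6 UMIs) and 91.6 CPM (35 UMIs). Cycling-like cells of the hGFAP-GFP library held 59.7% of its Hes6 UMIs and 40.0% of the UMIs of all genes. The genes Dll1 and Dll3 are among the markers that name the primitive OPC-like class. This class depended on the clustering. In the hGFAP-GFP library it had fewer than 30 cells, or none, at Leiden resolution 0.5, at resolution 2 and with the 6 genes included. The same was true in the PDGFRa-GFP library at resolution 0.5.

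In the tumours most classes lay close together in Hes6. At dpi 25 the 5 classes lay between 17.4 and 36.1 CPM, with 22.8 CPM in cycling-like cells (2.25% of cells with a UMI, median depth 2130) and 27.7 CPM in myeloid-like cells (4.03%, median depth 2166). At dpi 35 it was at 26.1 CPM in cycling-like (interval 23 to 29.5), 28.3 CPM in OPC-like and 26.2 CPM in myeloid-like cells (23.2 to 29.4). Oligodendrocyte-like cells were higher, at 38.5 CPM (31.7 to 46.2), and ependymal-like cells lower, at 12.5 CPM (6.02 to 23.1). The neuronal-like class stood far above the others, with 147.1 CPM in 30 cells (26 UMIs, interval 96.1 to 216). The cycling-like class of each tumour was thus at or below the myeloid-like level of the same library. At dpi 35 the cycling-like class includes the cluster described above that also holds myeloid markers. How much of the Hes6 signal is RNA free in the droplets was not tested.

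**Figure D2:**
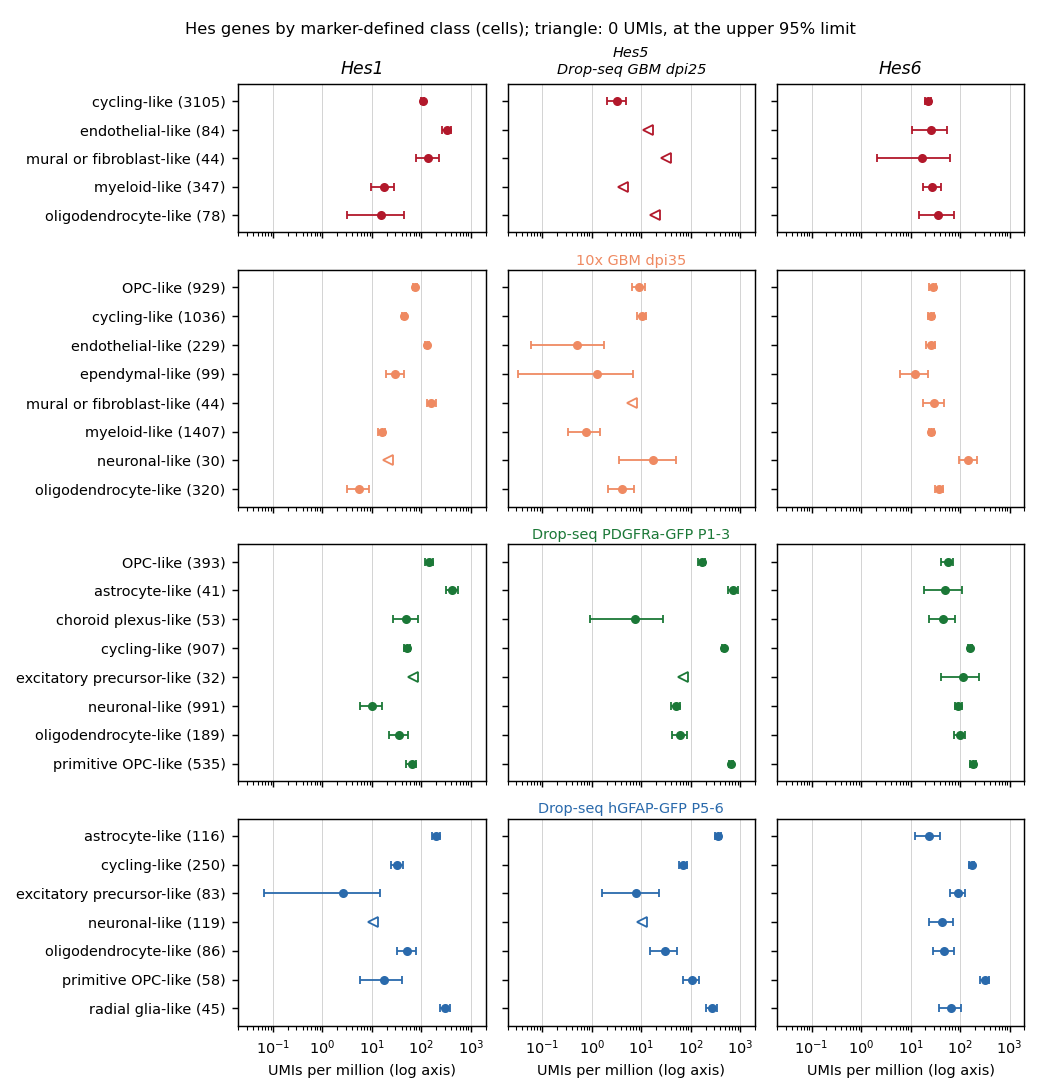
Levels of Hes1, Hes5 and Hes6, in CPM on a log axis, in the marker-named classes of at least 30 cells of each droplet library, with exact Poisson 95% intervals, and a triangle at the upper limit where no UMI was found. Hes5 is at 461.7 CPM or more in 3 classes of PDGFRa-GFP cortex and at or under 17 CPM in every tumour class drawn, while Hes1 reaches 327.6 CPM in endothelial-like tumour cells.

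The dpi 25 tumour was set against each cortex library to ask which of the 6 genes differ between tumour and cortex cells. The cortex cells were sorted by a reporter at postnatal ages, and the tumour labels give no sort, genotype or age. These differences cannot be told apart from the tumour itself. Heyl, with 19 UMIs in the pair with PDGFRa-GFP, 13 in the pair with hGFAP-GFP and 14 in the cortex pair, was under the minimum of 20 UMIs for a count of genes past a 2-fold ratio. Against PDGFRa-GFP cortex, 0 of the other 5 genes were at least 2-fold higher at dpi 25, where 16.2% of 14162 genes were, and 2 were at least 2-fold lower, Hes5 and Hes6, where 16.6% were. Hes1 passed 2-fold under other settings, with a log2 ratio of 1.2 at 1000 UMIs per cell and 1.14 with means of values scaled per cell. The log2 ratio of dpi 25 over PDGFRa-GFP was 0.83 for Hes1 (interval 0.68 to 0.99), -7.07 for Hes5 (-7.66 to -6.54), -2.37 for Hes6 (-2.56 to -2.18), -0.10 for Hey1 (-0.48 to 0.27) and 0.38 for Hey2 (-0.50 to 1.29). Hes1 was thus higher, Hes5 and Hes6 lower, and the intervals of the Hey genes held 0. Against hGFAP-GFP cortex, 0 of the 5 genes were at least 2-fold higher (17.2% of 14189 genes) and 3 were at least 2-fold lower, Hes5, Hes6 and Hey2 (20.5% of genes). The log2 ratio of dpi 25 over hGFAP-GFP was 0.48 for Hes1 (0.30 to 0.66), -5.51 for Hes5, -2.25 for Hes6, -0.56 for Hey1 (-0.97 to -0.14) and -1.06 for Hey2 (-1.85 to -0.25). Both comparisons use the same dpi 25 library. The platform differs for the dpi 35 library, so no ratio was made with it.

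Cycling-like cells were the largest class present in all 3 Drop-seq libraries, and the ratios were read again within them. Hes5 was at 3.25 CPM in cycling-like cells at dpi 25, against 461.7 CPM in PDGFRa-GFP and 71.5 CPM in hGFAP-GFP cycling-like cells, with log2 ratios of -7.15 (-7.80 to -6.57) and -4.46 (-5.16 to -3.82). Hes6 was at 22.8 CPM, against 157.5 and 172.8 CPM, with log2 ratios of -2.79 (-3.05 to -2.54) and -2.92 (-3.21 to -2.65). Hes1 was at 107 CPM, against 52.1 and 32.2 CPM, with log2 ratios of 1.04 (0.80 to 1.28) and 1.73 (1.34 to 2.16). Every one of these differences was as large as or larger than over all cells, except Hes5 against hGFAP-GFP. In oligodendrocyte-like cells no Hes5 UMI was found at dpi 25, which allows up to 19 CPM, against 60.9 CPM in PDGFRa-GFP cells. Hes6 in these cells was at 36.1 CPM at dpi 25 and 98.7 CPM in PDGFRa-GFP cortex (log2 ratio -1.45, -2.83 to -0.32).

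The cortex libraries were compared to ask how the 6 genes differ between the cells each reporter captures, with the limit that strain and age changed together. Over all cells 1 of 5 genes was at least 2-fold higher in PDGFRa-GFP cells, Hes5 (4.85% of 13555 genes), and 1 was at least 2-fold lower, Hey2 (12.7%). The log2 ratio of PDGFRa-GFP over hGFAP-GFP was 1.56 for Hes5 (1.42 to 1.71), -0.36 for Hes1 (-0.57 to -0.15), 0.12 for Hes6 (-0.03 to 0.28), -0.45 for Hey1 (-0.89 to -0.01) and -1.43 for Hey2 (-2.39 to -0.50). At 1000 UMIs per cell the Hey1 ratio was 0.13, in the other direction. Hes1 was lower in PDGFRa-GFP cells over the whole library, while its direction within matched classes varied. Astrocyte-like cells had 421.8 CPM of Hes1 in the PDGFRa-GFP and 196.4 CPM in the hGFAP-GFP library (log2 ratio 1.10, 0.59 to 1.60), and cycling-like cells 52.1 and 32.2 CPM (0.70, 0.25 to 1.16). Primitive OPC-like cells had 63.7 and 17.5 CPM (1.87, 0.58 to 3.53, with 5 UMIs in hGFAP-GFP), and oligodendrocyte-like cells 36.2 and 52.3 CPM (-0.53, -1.46 to 0.40). The PDGFRa-GFP library held 41 astrocyte-like cells of 3184, and the hGFAP-GFP library 116 of 815. Hes5 was higher in PDGFRa-GFP cells in cycling-like (log2 ratio 2.69, 2.42 to 2.97), primitive OPC-like (2.64), astrocyte-like (1.03, 0.65 to 1.40) and oligodendrocyte-like cells (1.03, 0.05 to 2.10). In neuronal-like cells it was at 49.5 CPM in the PDGFRa-GFP library, and no UMI was found in the hGFAP-GFP library, which allows up to 10.5 CPM. Hes6 had no single direction. Its log2 ratio was -0.79 in primitive OPC-like cells (-1.15 to -0.42), -0.13 in cycling-like cells (-0.34 to 0.08) and 1.11 in neuronal-like cells (0.35 to 1.99).

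Hey1 was highest in ependymal-like cells of the dpi 35 tumour and astrocyte-like cells of the cortex, whose intervals overlapped in the PDGFRa-GFP library. It was at 161.8 CPM in the 99 ependymal-like cells of the dpi 35 tumour (interval 135 to 192), and the next class there, endothelial-like cells, was at 12 CPM. These 99 cells held 26.8% of the Hey1 UMIs of the library and 1.56% of the UMIs of all genes. In the cortex Hey1 was at 135 CPM in PDGFRa-GFP astrocyte-like cells (77.2 to 219) and 73.9 CPM in hGFAP-GFP astrocyte-like cells (53 to 100). It was at 25.7 CPM in OPC-like, 8.18 CPM in cycling-like and 2.47 CPM in neuronal-like cells of PDGFRa-GFP cortex. In the dpi 25 tumour it was at 22.3 CPM in endothelial-like cells (6 UMIs), 10.6 CPM in cycling-like cells and 0 in myeloid-like cells.

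Hey2 was at 28.8 CPM in hGFAP-GFP astrocyte-like cells (16 UMIs, 16.5 to 46.8), which held 64% of the Hey2 UMIs of that library. The 41 PDGFRa-GFP astrocyte-like cells had no Hey2 UMI, which allows up to 31.1 CPM, so a difference was not detectable at this depth. At dpi 35 Hey2 was at 10.0 CPM in ependymal-like and 5.79 CPM in oligodendrocyte-like cells.

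Heyl was a gene of mural or fibroblast-like cells in both tumours. It was at 52.3 CPM at dpi 25 (6 UMIs, 19.2 to 114) and 47.7 CPM at dpi 35 (27 UMIs, 31.4 to 69.4). The next classes were at 0.406 CPM at dpi 25 and 3.74 CPM at dpi 35. These classes held 66.7% of Heyl UMIs at dpi 25 and 40.9% at dpi 35, against 0.994% and 1.11% of the UMIs of all genes.

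**Figure D3:**
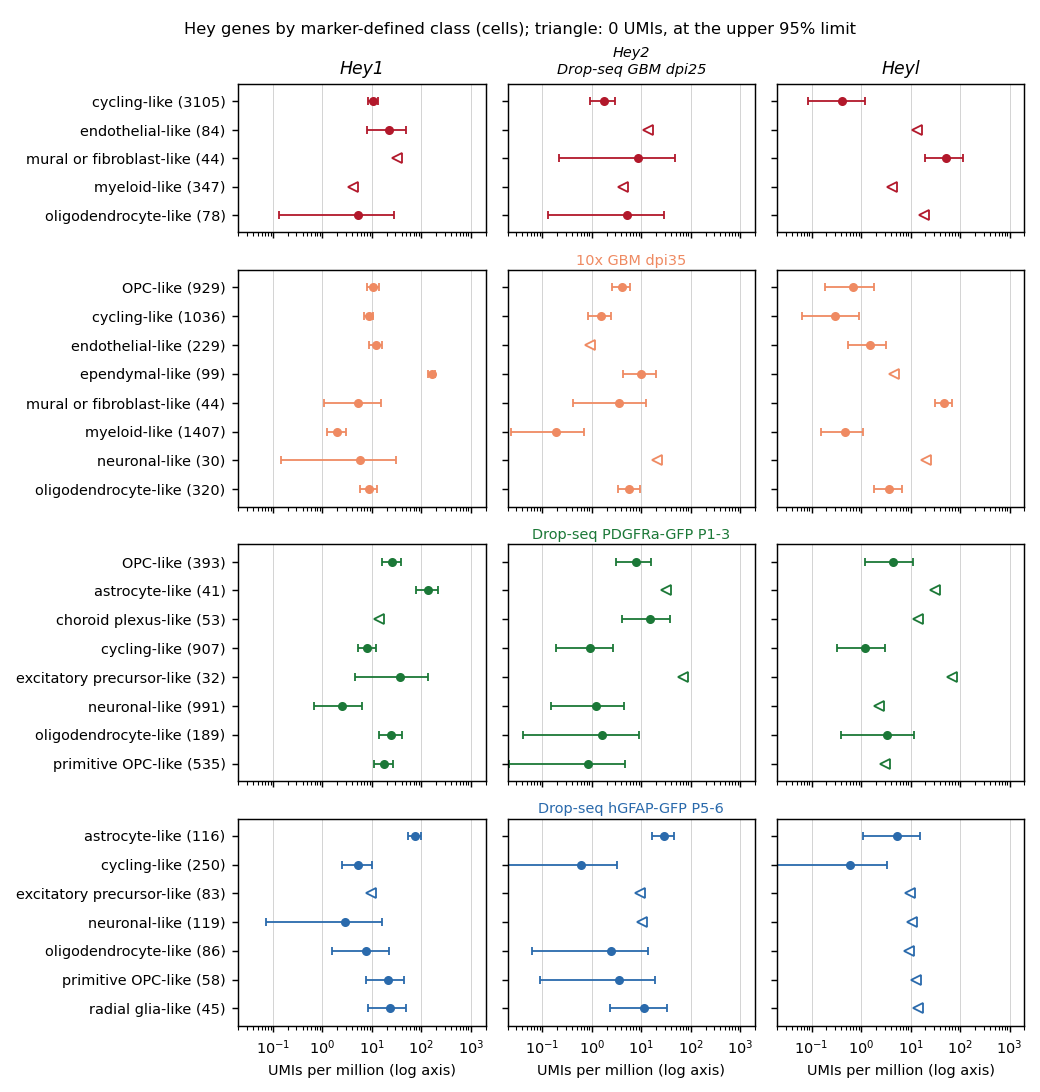
Levels of Hey1, Hey2 and Heyl, in CPM on a log axis, in the same classes, with exact Poisson 95% intervals, and a triangle at the upper limit where no UMI was found. Hey1 stands out in ependymal-like cells at dpi 35 (161.8 CPM) and astrocyte-like cells of the cortex, and Heyl in mural or fibroblast-like cells of both tumours (52.3 and 47.7 CPM).

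Co-detection was read at 1000 UMIs per cell, where a missing UMI is no sign of a missing RNA. In PDGFRa-GFP cortex, 20.1% of the cells with a Hes5 UMI also had a Hes6 UMI (interval 16.1 to 24.4), against 9.4% of cells without Hes5 (8.3 to 10.7). This also held within classes, in 24.5% against 9.8% of cycling-like cells and 23.4% against 12.3% of primitive OPC-like cells. In OPC-like cells it did not, with 7.0% against 7.8%. In the hGFAP-GFP library the shares of cells with Hes6 were 9.1% with and 9.1% without Hes5. The hGFAP-GFP share rested on 7 cells with both genes (interval 3.73 to 17.8), and the difference between the libraries was not tested.

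Hes1 and Hes5 were co-detected in both cortex libraries. A Hes5 UMI was found in 24.8% of PDGFRa-GFP cells with Hes1 (16.7 to 34.3), against 13.7% of those without. In hGFAP-GFP cells the shares were 28% (16.2 to 42.5) and 8.2% (6.4 to 10.4). Within classes the gap was smaller or absent in some cases. In hGFAP-GFP astrocyte-like cells the shares were 41.2% (18.4 to 67.1) and 29.3% (20.6 to 39.3), and in PDGFRa-GFP OPC-like cells 13.2% and 13.3%. Within PDGFRa-GFP cycling-like cells 10 of the 20 cells with Hes1 had Hes5, which is 50%, against 18.2% of the others. In the tumours too few cells had Hes5 for any pair, and Hes6 was found in 3.6% of dpi 25 cells with Hes1 (2.1 to 5.6) and 2.5% of those without.

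The ligand gene Dll3 was read in the same cells. In PDGFRa-GFP cycling-like cells, Dll3 was found in 14.8% of cells with Hes5 (9.6 to 21.4) and 4.7% of cells without. In primitive OPC-like cells, which Dll3 helps to name, no such gap was seen, with Dll3 in 26.6% of cells with Hes5 and 28.4% of cells without.

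**Figure D4:**
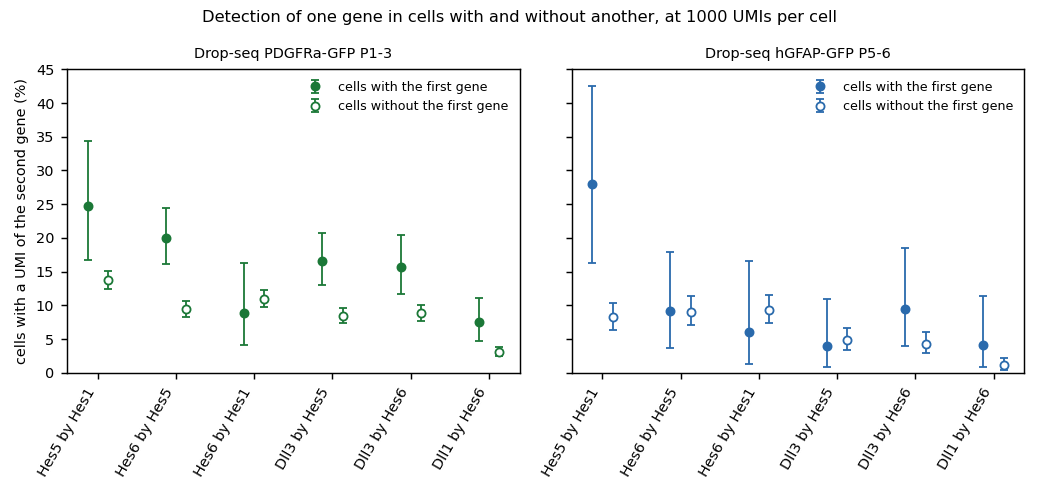
Percent of cells with a UMI of the second gene, among cells with and without a UMI of the first gene, at 1000 UMIs per cell, with Clopper-Pearson 95% intervals. In PDGFRa-GFP cortex 20.1% of cells with Hes5 and 9.4% of cells without it hold Hes6, and in hGFAP-GFP cortex both shares are 9.1%.

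The C1 sets give the same 6 genes in single cells at different ages of 1 strain. Their depth is unknown, the tables of the strains were normalised separately and are not compared, and the median cell was listed at 0 for each gene in each set. A share is that of cells at 10 TPM or more. Hes6 was the gene found most often. In PDGFRa-GFP it had a mean of 85.1 TPM in P6 cells (32.1% of cells, highest cell 1203 TPM) and 88.2 TPM in P3 cells (28.3%, highest 1053 TPM). In hGFAP-GFP it had a mean of 176.8 TPM in P4 to P6 cells (31.1%, highest 3333 TPM) and 94 TPM in P3 cells (32.7%, highest 1236 TPM). The share of cells with Hes6 was thus alike at the ages compared, with intervals of 19.9 to 46.3 and 17.5 to 41.4 in PDGFRa-GFP cells at P6 and P3.

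In PDGFRa-GFP cells, 4 of the 6 genes were at least 2-fold higher at P6 by the ratio of means with a pseudocount of 1, Hes1, Hey1, Hey2 and Heyl, where 33.9% of 15737 genes were, and 0 were at least 2-fold lower, where 20.5% were. Over all genes the median log2 ratio was 0.32. Hes1 had a mean of 7.60 TPM in P6 cells (3 of 53 cells at 10 TPM or more, highest 179.6 TPM) and 0.848 TPM in P3 cells (2 of 60 cells, highest 35.5 TPM). The Hes1 and Hey2 ratios of 2.22 and 1.97 on the log2 scale were 0.70 and 0.39 with a pseudocount of 10 and 0.48 and 0.19 with means of log2(TPM + 1), which ends both calls, and the Hey1 ratio of 1.77 was 0.88 with means of log2(TPM + 1). Hey1 had a mean of 54.4 TPM in P6 cells (18.9% of cells, highest 738.5 TPM) and 15.3 TPM in P3 cells (10% of cells, highest 258.9 TPM). Hes5 had a mean of 16.5 TPM in P6 cells (7.55%) and 9.52 TPM in P3 cells (5%). P6 cells had a median of 5591 detected genes and P3 cells one of 4124.5, and the part of this difference in the result was not tested. Heyl had a mean of 1.33 TPM in P6 cells and was listed at 0 in all 60 P3 cells, so no fold is given for it. Its place among the 4 genes rested on 1 of 53 P6 cells, which held 84.6% of the Heyl TPM, and without this cell the mean was 0.208 TPM. The highest P6 cell held 75.5% of the TPM of Hey2, 44.6% of that of Hes1 and 25.6% of that of Hey1.

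In hGFAP-GFP cells, 1 gene was at least 2-fold higher at P4 to P6, Heyl (25.7% of 12564 genes), and 2 were at least 2-fold lower, Hes5 and Hey2 (26.1%). With means of log2(TPM + 1) none of the 3 passed 2-fold: the log2 ratios were 0.16 for Heyl, -0.63 for Hes5 and -0.64 for Hey2. Single cells held much of these means: 93.4% of the Heyl TPM at P4 to P6 came from 1 cell. For Hes5, 61.8% of the TPM at P4 to P6 came from 1 cell, and 56.5% at P3 from 1 cell of 1614 TPM. Without the highest cell of each set, a step chosen after seeing the data, the Hes5 log2 ratio was -2.27, against -2.21 with them. Hes5 had a mean of 11.8 TPM in P4 to P6 cells and 58.3 TPM in P3 cells, while its share of cells was 11.5% and 14.3%. Hes1 had a mean of 3.46 TPM in P4 to P6 cells (6.56% of cells) and 6.79 TPM in P3 cells (20.4% of cells).

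Clusters made in each C1 table placed the genes in classes. In the hGFAP-GFP table, Hes6 was at 10 TPM or more in 66.7% of 27 cycling-like cells (46 to 83.5) and 14.3% of 35 astrocyte-like cells (4.81 to 30.3). Hes1 and Hes5 were each found in 28.6% of the astrocyte-like cells (14.6 to 46.3), and Hey1 in 22.9%. Of these 35 astrocyte-like cells, 8 were of the P4 to P6 set and 27 of the P3 set. In the PDGFRa-GFP table, Hes6 was found in 62.5% of 16 astrocyte-like cells (35.4 to 84.8), 45.5% of 22 cycling-like cells (24.4 to 67.8) and 6.45% of 31 neuronal-like cells. Hes1 and Hes5 were listed at 0 in all 31 neuronal-like cells. The OPC-like cluster held 21 P6 and 2 P3 cells, and the neuronal-like cluster 6 P6 and 25 P3 cells, so the age sets differed in classes.

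**Figure D5:**
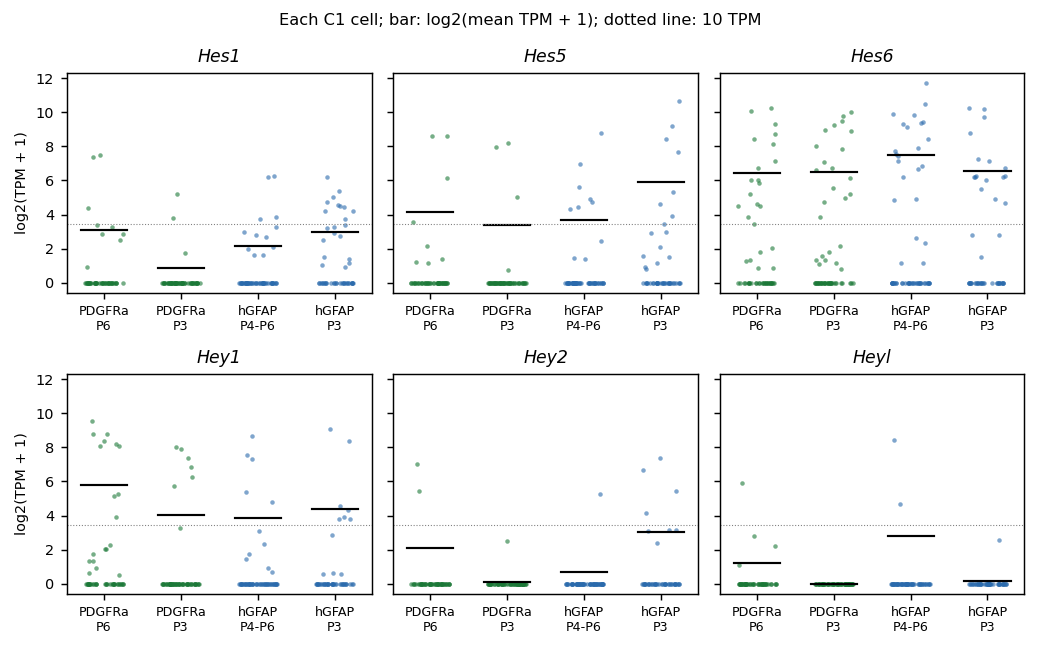
Level of each of the 6 genes in every C1 cell, as log2(TPM + 1), by set, where 1 point is 1 cell, the black bar is log2 of the mean TPM + 1 and the dotted line is at 10 TPM. Hes6 has the most cells above 10 TPM in each set, 32.1% at P6 and 28.3% at P3 in PDGFRa-GFP, and most cells are at 0 for every gene.

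The rest of the pathway was read from lists chosen by role, by the same 2-fold rule and against the same shares of all genes. At dpi 25 against PDGFRa-GFP cortex, 0 of 4 Notch receptors were higher and 1 was lower, with a median log2 ratio of -0.07, where the median of all genes was -0.01. Notch1, the receptor of neural progenitors, was at 62.5 CPM at dpi 25 and 67.2 CPM in PDGFRa-GFP cortex (log2 ratio -0.11). Among 6 ligands 1 was higher and 2 were lower. The noncanonical ligand gene Dlk1 was at 35.7 against 1.35 CPM, Dll1 at 5.11 against 40.5 CPM and Dll3 at 27.4 against 114.6 CPM. Of 10 genes acting in the nucleus or on the released receptor 0 were higher and 5 were lower (median -0.87), among them Rbpj, at 24.4 against 53.8 CPM, and Nrarp, a Notch target that limits the signal (log2 ratio -1.03). Of 9 processing and fringe genes 0 were higher and 2 were lower, Mfng (-3.79) and Lfng (-1.41), which modify the receptors with sugars. Of 5 genes of the Groucho family, which includes corepressors that Hes proteins recruit, 0 were higher and 2 were lower (median -0.80). Counts of this family are given below under the name corepressors. Among 10 measured bHLH partners and opponents 1 was higher and 3 were lower. Id4, an inhibitor of bHLH proteins, was at 1.39 CPM at dpi 25 and 44.9 CPM in PDGFRa-GFP cortex (log2 ratio -5.02). Of 6 listed relatives of the Hes family outside the 6 genes, 3 were measured in this pair and were at least 2-fold higher at dpi 25: Bhlhe40 was at 41 against 3.31 CPM (3.63), Bhlhe41 had a log2 ratio of 3.50 and Hes7 one of 1.5 (-0.13 to 3.54). The relative Helt was at 33.6 CPM in PDGFRa-GFP cortex and has no row in the dpi 25 table, so it stands outside this count. The low Hes5 and Hes6 levels at dpi 25 thus stood beside lower levels of Dll1, Dll3 and Rbpj than in PDGFRa-GFP cortex and a Notch1 level near that of this library.

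Against hGFAP-GFP cortex the counts at dpi 25 were 0 higher and 3 lower of 4 receptors, 1 and 3 of 5 ligands, 0 and 2 of 9 processing genes, 1 and 6 of 10 nuclear genes, 2 and 5 of 10 bHLH genes, 0 and 3 of 5 corepressors and 2 and 0 of 3 relatives. Notch1 was among the lower receptors, at 62.5 CPM at dpi 25 and 130.6 CPM in hGFAP-GFP cortex (log2 ratio -1.06, -1.23 to -0.90). Between PDGFRa-GFP and hGFAP-GFP cortex they were 0 and 2 of 4 receptors, 1 and 1 of 4 ligands, 0 and 1 of 9 processing genes, 1 and 1 of 10 nuclear genes, 1 and 4 of 11 bHLH genes, 0 and 0 of 5 corepressors and 0 and 1 of 3 relatives. The ligand gene Dll3 was at 114.6 CPM in PDGFRa-GFP and 50.05 CPM in hGFAP-GFP cells (log2 ratio 1.2). Hes5 and Dll3 were both higher in PDGFRa-GFP cells, but other genes of the pathway went the other way. By direction alone, all 4 receptor genes were lower, among them Notch1 (log2 ratio -0.96), and 2 of the 4 ligands were lower. The Notch target Nrarp (-1.30) and Rbpj (-0.48) were also lower. A link between these levels was not tested.

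In the C1 sets the lists were measured in part. At P6 against P3 in PDGFRa-GFP cells, where 33.9% of all genes were at least 2-fold higher and 20.5% lower, the counts were 0 higher and 0 lower of 3 receptors, 1 and 0 of 3 ligands, 0 and 3 of 8 processing genes, 2 and 4 of 9 nuclear genes, 5 and 0 of 10 bHLH genes, 3 and 0 of 5 corepressors and 3 and 0 of 4 relatives. Neurog2, counted among the higher bHLH genes, was listed at 0 at P3. In hGFAP-GFP cells at P4 to P6 against P3, where the shares were 25.7% and 26.1%, they were 0 and 1 of 3 receptors, 0 and 2 of 4 ligands, 2 and 4 of 9 processing genes, 3 and 3 of 10 nuclear genes, 0 and 1 of 10 bHLH genes, 1 and 0 of 5 corepressors and 0 and 1 of 3 relatives. Nrarp was found in 14.8% of P4 to P6 cells and 36.7% of P3 cells.

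The genes whose levels run most like those of each member were ranked by Pearson's r of log2(CPM + 10) over 28 sums of a library and class, among 8614 genes. These sums share library, depth and class, so r is a description. Hes1 was followed by Id3 (0.81), an inhibitor of bHLH proteins, Suclg2 (0.80) and Slc38a3 (0.79). Hes5 was followed by Sox21 (0.87), Insig1 (0.83) and Nr2e1 (0.83), of which Sox21 and Nr2e1 encode transcription factors of neural progenitors. Hes6 was followed by Draxin (0.83), Tfdp2 (0.81) and Miat (0.80), Hey1 by Cpe (0.84), Ptpra (0.79) and Slc1a4 (0.78), and Hey2 by Fars2 (0.75), Clybl (0.74) and Antxr1 (0.71). Heyl was followed by Col3a1 (0.91), Postn (0.91) and Myl9 (0.89), genes of matrix and contractile cells. Of these, Col3a1 and Myl9 are among the markers that name the mural or fibroblast-like class, in which Heyl was highest in both tumours. The order was taken before centring each library on its mean. After centring, none of the genes listed for Hes1 stayed among its first 3, though r with Id3 was 0.84. Another gene came first for Hes5 and Hes6, and the first gene was unchanged for Hey1, Hey2 and Heyl. Among the members, r was 0.52 for Hes5 and Hes6, 0.38 for Hes1 and Hes5, and -0.35 for Hes1 and Hes6. After centring each library on its mean, r was 0.15, 0.57 and -0.42 for the same pairs, so the likeness of Hes5 and Hes6 lay between libraries more than between classes.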

How the data were processed

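The deposited Drop-seq values are a signal in which the UMIs of a cell were scaled to 10000 (STAR, per the submitters' processing notes). Dividing by the step of each cell gave back whole UMIs, with 99% or more of values within 0.1 of a whole number in 100% of cells. The 10x values are deposited UMI counts from Cell Ranger, and the C1 values deposited TPM from RSEM, per the submitters' processing notes. The authors deposited 1 pooled ATAC list with a fold ratio and −log10 q values, per the file headers (MACS2, Bowtie2, HOMER and CASAVA, per the submitters' processing notes, which name builds mm10 and rn5). An interval lay over 43.0% of GRCm38.p6 promoter windows and 2.60% of windows moved by 1000000 bases, so the coordinates were read as mm10. Labels and files disagree in places: a strain field names hGFAP for the C1 PDGFRa-GFP cells and stage fields differ for ATAC, so titles were followed, and labels give 2000 hGFAP-GFP and 6796 dpi 25 cells where tables hold 815 and 4955.

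Python 3.11.15, scanpy 1.11.5, leidenalg 0.10.2, scipy 1.17.1 and edgeR 4.0.16 (TMM only) were used. Libraries were clustered one by one (minimum of 200 genes per cell, Leiden resolution 1, seed 20). A class needed 3 markers among 50 leading genes, or 4 with none among the first 10. This rule and the joining of committed with mature oligodendrocytes, S with G2 and M phase, microglia with macrophages, mural cells with fibroblasts and interneurons with neurons were settled after the clusters had been seen. Scrublet called 4, 5, 0 and 125 doublets in the hGFAP-GFP, PDGFRa-GFP, dpi 25 and dpi 35 libraries, which were kept. Ratios have exact conditional binomial intervals, and a sum of 0 was set to a floor of 3 UMIs. The background counts genes with at least 20 UMIs, or a mean of at least 1 TPM, in a pair. The named genes are the 6 members, genes of the pathway lists and the 3 genes most like each member. Members and lists were chosen with earlier results of these data known. Of the bHLH list, 1 gene is not reported here and stays out of its counts. Ratios, thinning and likeness were tested on simulated data. RefSeq gave promoter windows for Hes5, Hes6 and Hey2.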

Additional observations from a re-analysis of the deposited data

Results flagged for a closer look

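Hey2 differed in opposite directions with age in the C1 sets of the 2 strains, and this difference between strains was not tested, since each set is 1 sample. In PDGFRa-GFP cells the log2 ratio of mean TPM was 1.97 for P6 over P3, with 2 of 53 cells at 10 TPM or more at P6 and 0 of 60 at P3. In hGFAP-GFP cells it was -2.33 for P4 to P6 over P3, with 1 of 61 cells at P4 to P6 and 4 of 49 at P3. Without the highest cell of each set, a step chosen after seeing the data, neither comparison of Hey2 gave a value, because a set was then listed at 0.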

How the results depend on the processing

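No paired analysis was possible because each droplet group is 1 library and each C1 set 1 sample. Of 106 droplet ratios under other settings 98 stayed within their interval, 7 moved and 1 reversed: Hey1 in PDGFRa-GFP over hGFAP-GFP cells was 0.13 at 1000 UMIs per cell. At 1000 UMIs per cell the log2 ratios were 1.2 for Hes1 and -2.17 for Hes6 (dpi 25 over PDGFRa-GFP), 0.71 for Hes1 (dpi 25 over hGFAP-GFP) and 1.03 for Hes5 (PDGFRa-GFP over hGFAP-GFP). With means of scaled values they were 1.14 for Hes1 (dpi 25 over PDGFRa-GFP) and 1.21 for Hes5 (PDGFRa-GFP over hGFAP-GFP), and TMM scaling gave 0.69 for Hes1 (dpi 25 over hGFAP-GFP). The cause was not tested. TMM moved the median of all genes by -0.14 in hGFAP-GFP and 0.07 in dpi 25 relative to PDGFRa-GFP. Leaving out doublets or immune, vascular, erythroid, ependymal and choroid clusters moved none of the droplet ratios, and no doublet was called at dpi 25. The share of genes at least 2-fold lower in PDGFRa-GFP than in hGFAP-GFP was 19.4% with 5 UMIs and 6.86% with 100 UMIs as minimum. With no filter, C1 shares higher and lower were 11.5% and 6.93% in PDGFRa-GFP and 13.3% and 13.5% in hGFAP-GFP. Hes6 in primitive OPC-like PDGFRa-GFP cells was at 269.9 CPM at Leiden resolution 2 and 257.9 CPM with the 6 genes in the clustering. Of 28 classes, 5 had fewer than 30 cells, or none, at resolution 0.5, 3 at resolution 2, 2 with the 6 genes and 1 without doublets. That last class, neuronal-like at dpi 35, held 30 cells, 1 of them a called doublet. All 24 co-detection values that were checked kept their place. They were for pairs of the 6 genes over all cells of a library, where enough cells were expected to hold both. Values within classes and those with Dll3 were not checked.

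C1 ratios turned on the pseudocount and on rare cells. For P6 over P3 in PDGFRa-GFP, pseudocounts of 0.1 and 10 and means of log2(TPM + 1) gave 3.02, 0.70 and 0.48 for Hes1 and 4.24, 0.39 and 0.19 for Hey2, and the last gave 0.88 for Hey1. For P4 to P6 over P3 in hGFAP-GFP they gave -3.33, -0.69 and -0.64 for Hey2 and 4.92, 0.67 and 0.16 for Heyl, and the last gave -0.63 for Hes5 and 0.22 for Hes6. Without the highest cell of each set, chosen after seeing the data, 8 of the 8 ratios that could be taken kept direction and size. Hey2 and Heyl gave no value in either strain, because a set was then listed at 0. Intervals with a −log10 q of at least 10 within 5 kb numbered 0 at Hes1, 2 at Hes5, 1 at Hes6, 1 at Hey1, 1 at Hey2 and 0 at Heyl, and intervals within 50 kb 12, 23, 11, 5, 7 and 6 in the same order. Depth limits Hey2 and Heyl, with at most 121 UMIs of Hey2 and 66 of Heyl in a library.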

Other observations

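In both tumours Hey1 and Hey2 were higher in a cluster led by genes of low oxygen than in cycling-like cells. At dpi 25 the 474 cells led by Ero1l, Ndrg1 and Bnip3 had 25.6 CPM of Hey1 and 13.3 CPM of Hey2, against 10.6 and 1.76 CPM in cycling-like cells. At dpi 35 the 268 cells led by Vegfa, Adm and Bnip3 had 27.8 and 17.5 CPM, against 8.73 and 1.52 CPM in cycling-like cells. Hes5 was at 1.02 CPM in this cluster at dpi 25 and 15.8 CPM at dpi 35. The whole dpi 25 library held 33 Hey2 UMIs, so the Hey2 values there rest on few molecules. These clusters were singled out after their values were seen.

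The ligand gene Dll4 was at 100.5 CPM in endothelial-like cells at dpi 25 and 92.9 CPM at dpi 35, the classes in which Hes1 was at 327.6 and 131.2 CPM, and the Notch target Nrarp at 96.8 and 71.6 CPM. The receptor gene Notch3 was at 52.3 and 60.0 CPM in the mural or fibroblast-like cells that held Heyl. The whole dpi 25 library held 8 Notch3 UMIs, so its value rests on few molecules. A cluster of 17 cells at dpi 25 led by Cd24a, Aqp4 and Nupr1, which met no marker rule, had 128.8 CPM of Hey1. An unnamed cluster of 44 hGFAP-GFP cells led by Naaa, Entpd2 and Hgf had 219.1 CPM of Hes1 and 190.3 CPM of Hes5.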
